A study of Mus musculus with 48 samples.

Results

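The nuclear-encoded genes of the mitochondrial respiratory chain were followed in mouse mixed gastrocnemius, a calf muscle, through 4 combinations of hormone and diet. Members were taken from the count table by gene symbol, as the Nduf (a, b, c, s and v series), Sdha to Sdhd, Uqcr, Cyc1, Cox4 to Cox8 and Atp5 families, which gave 91 of 14125 genes. Of these, 83 were counted as subunit genes. They were 35 of complex I, 4 of complex II, 9 of complex III, 18 of complex IV and 17 of ATP synthase. Those of complex IV include Ndufa4l2, a relative of the subunit gene Ndufa4, and Cox7a2l, a factor of supercomplexes (assemblies of several complexes). Another 7 are processed copies of such genes, and Atp5s encodes a protein that is not a subunit. A filter on low counts kept 89 of the 91, all 83 subunit genes among them, and left out 2 copies.

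All mice were male C57BL6J and were treated for 2 weeks. EtOH_CON mice (n = 10) drank 1% ethanol as vehicle and ate control chow, and EtOH_ATGLi mice (n = 10) drank vehicle and ate chow with 571 mg/kg atglistatin. Cort_CON mice (n = 14) drank 100 ug/ml corticosterone and ate control chow, and Cort_ATGLi mice (n = 14) received corticosterone and atglistatin together. In mice corticosterone is the chief glucocorticoid, a stress hormone, and atglistatin inhibits adipose triglyceride lipase, the enzyme that begins the breakdown of stored fat. The labels record neither the age of the mice nor whether ethanol was also present in water with corticosterone. Of the Cort_CON mice, 9 carry the label diabetic and 5 nondiabetic, and every mouse of the other 3 groups is labelled nondiabetic. The study's title names continuous corticosterone exposure and the blocking of lipolysis as what the muscle was adapting to. Each library was taken as 1 mouse because the labels give each its own glucose and insulin value, although they do not say so; otherwise the p-values measure only the spread between samples.

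The respiratory chain sits in the inner mitochondrial membrane. Complexes I and II pass electrons from NADH and succinate to coenzyme Q, complex III passes them to cytochrome c, and complex IV passes them to oxygen; the proton gradient that complexes I, III and IV build drives ATP synthase. Most subunits are encoded in the nucleus and a smaller set in mitochondrial DNA, and in muscle several subunits of complex IV exist in a heart and muscle form and in a form found in most tissues. Nuclear respiratory factor 1 (NRF1), ETS family factors and oestrogen-related receptors (ERR) are known regulators of these genes.

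The 48 libraries held 10453888 to 24034481 counts, so a CPM (a count scaled to library size) of 1 stood for 10.5 counts in the shallowest and 24 in the deepest. CPM values here use library sizes scaled by the trimmed mean of M-values (TMM), and are not corrected for gene length. Levels are compared between groups and not between genes. Libraries EtOH_CON p01 and Cort_ATGLi p41 had the lowest mean correlation with their own groups (0.9532 and 0.954), and values without them are given below where a call or a value changed. Muscle fibre markers were present at high level in every library, with a summed 75654.5 to 140828.6 CPM over 10 genes. Markers of several cell types changed with corticosterone, where 18.9% of all genes were higher and 19.5% lower on control chow, and 15% in each direction on atglistatin chow. Slow fibre markers were higher for 4 of 10 genes on control chow and for 5 of 10 on atglistatin chow, and muscle fibre markers were higher for 4 and 3 and lower for 1 and 1 of 10. Erythroid markers were higher for 4 of 5 on control chow and for 1 of 5 on atglistatin chow. Fibro-adipogenic markers were lower for 7 of 8 on both diets, macrophage markers for 4 of 8 on both, and endothelial markers for 4 of 8 on both with 1 higher. Smooth muscle and Schwann cell markers were each lower for 3 of 6 on control chow, and for 1 and 0 of 6 on atglistatin chow. In such bulk tissue, fewer cells of a type and less RNA per cell cannot be told apart. The part of these shifts in the results below was not tested.

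Promoter sequences were looked up for members that passed the test with corticosterone, to show what the genes that moved have at their starts. The RefSeq table of promoters (GRCm38.p6, 250 bases before to 50 after a start) held 65 of the member genes and 4 of the 8 members that passed in either corticosterone comparison. The sequences run 5′ to 3′ on the gene's strand, and capitals mark matches to the motifs searched on both strands, which were the NRF1 core, the ETS core CCGGAAG and the ERR half-site TCAAGGTCA. Atp5g1 and Atp5g3 encode the same mature c-ring protein of ATP synthase and had fold changes of opposite sign, and Ndufa3 and Ndufa7 are complex I accessory subunits that rose on both diets. Their starts lie at chr11:96075582-96075881 on the minus strand for Atp5g1, chr2:73911277-73911576 on the minus strand for Atp5g3, chr7:3617123-3617422 on the plus strand for Ndufa3 and chr17:33824322-33824621 on the plus strand for the first of the 2 Ndufa7 starts.
Atp5g1: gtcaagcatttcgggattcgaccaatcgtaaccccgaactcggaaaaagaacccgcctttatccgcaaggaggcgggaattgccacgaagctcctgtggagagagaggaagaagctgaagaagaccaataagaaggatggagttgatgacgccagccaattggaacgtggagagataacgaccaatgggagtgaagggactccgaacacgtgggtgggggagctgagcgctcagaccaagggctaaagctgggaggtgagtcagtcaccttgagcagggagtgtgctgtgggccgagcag
Atp5g3: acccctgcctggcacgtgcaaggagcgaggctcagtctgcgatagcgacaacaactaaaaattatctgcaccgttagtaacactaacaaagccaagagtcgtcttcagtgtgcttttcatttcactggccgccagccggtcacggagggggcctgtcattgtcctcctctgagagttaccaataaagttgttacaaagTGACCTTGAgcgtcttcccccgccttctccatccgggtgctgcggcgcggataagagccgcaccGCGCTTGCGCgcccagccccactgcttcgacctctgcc
Ndufa3: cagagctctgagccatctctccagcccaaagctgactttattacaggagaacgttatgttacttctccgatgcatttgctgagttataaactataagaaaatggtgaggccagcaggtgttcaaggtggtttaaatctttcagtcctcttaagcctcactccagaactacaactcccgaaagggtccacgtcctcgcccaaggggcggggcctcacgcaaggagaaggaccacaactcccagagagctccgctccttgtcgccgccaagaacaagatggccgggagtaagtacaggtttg
Ndufa7: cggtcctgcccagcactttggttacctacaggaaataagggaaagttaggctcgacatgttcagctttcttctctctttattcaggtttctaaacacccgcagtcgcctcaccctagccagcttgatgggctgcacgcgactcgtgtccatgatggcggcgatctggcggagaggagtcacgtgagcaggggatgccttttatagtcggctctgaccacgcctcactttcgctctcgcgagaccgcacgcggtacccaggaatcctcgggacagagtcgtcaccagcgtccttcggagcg
The Atp5g3 promoter held an ERR half-site, read on the opposite strand, and an NRF1 core. Neither the Atp5g1, Ndufa3 nor Ndufa7 windows held any of the 3 motifs, which says only that those letters are not in these windows. Among all 70 member promoters used the NRF1 core was found in 25.7%, against 4.6% of the 32851 promoters used. The ETS core was found in 22.9% of member promoters and 8.86% of all, and the ERR half-site in 2.86% and 0.423%. These matches are a description of the letters and do not show binding.

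Corticosterone left the mean level of most respiratory chain genes close to that of vehicle mice, with a few subunits moving apart from the rest. On control chow (Cort_CON against EtOH_CON) 5 of 89 members rose and 2 fell by edgeR's quasi-likelihood test at a Benjamini-Hochberg adjusted p of 0.05, where 38.4% of all 12592 genes passed (18.9% higher, 19.5% lower). Ndufa3, Ndufa7, Cox6a2 and Atp5g1 were among the risers, and Ndufs1 and Ndufa4l2 fell. On atglistatin chow (Cort_ATGLi against EtOH_ATGLi) 4 members rose (Ndufa3, Ndufa7 and Cox6a2 among them) and Atp5g3 fell, where 30% of all genes passed (15% in each direction). In the 1929 genes that averaged 50 CPM or more, the background was 52.4% and 45.9%. In these fits none of the 9 complex III genes or the 4 complex II genes passed on either diet. These comparisons share no library, since each diet has its own vehicle group.

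The size of the changes was small as well as their number. Over the 89 members the median log2 fold change was 0.03 on control chow and 0.02 on atglistatin chow, and over all genes it was -0.00 in both. Without regard to sign, the median was 0.0970 for members and 0.245 for all genes on control chow, and 0.0726 and 0.207 on atglistatin chow. The 95% confidence interval of the fold change lay inside 1.5-fold in both directions for 77 of the 83 subunit genes on control chow and for 79 on atglistatin chow. Those with wider intervals on control chow were Atp5g2, Cox4i2, Cox6b2, Cox7a1, Ndufa4l2 and Sdhd, of which Sdhd ranged from 25.1 to 112 CPM within EtOH_CON alone. How many members passed depended on scaling: with library totals and no TMM factor, 4 rose and 16 fell on control chow, and 4 rose and 6 fell on atglistatin chow. That scaling moved the median of all genes to -0.11 on control chow and -0.04 on atglistatin chow. Under library totals 65 of 89 log2 fold changes on control chow were below 0, against 36 with TMM, and Sdhb, Uqcrc1, Cox6a1, Cox7a1, Cox8b and Atp5g3 were among those that fell. With upper quartile scaling 4 rose and 5 fell on control chow, and 4 rose and 3 fell on atglistatin chow. The share of all genes that passed was not counted under library totals or upper quartile scaling, so these counts have no background.

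**Figure D1:**
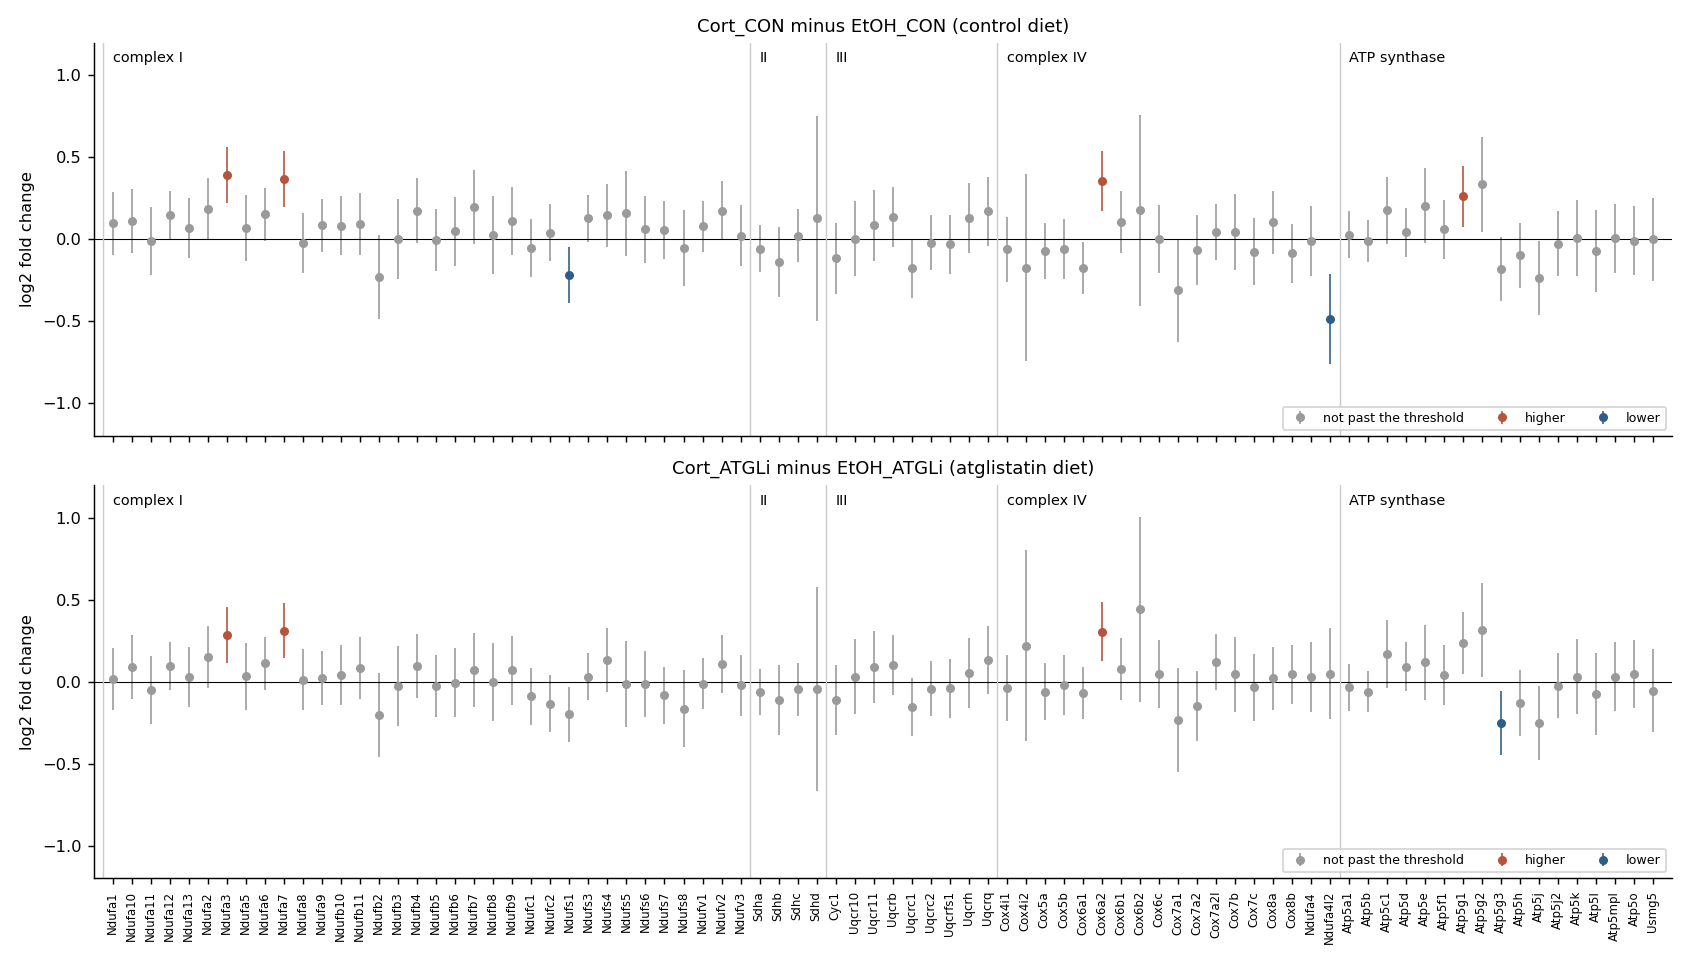
Log2 fold change of the subunit genes described here with corticosterone on control chow (top) and atglistatin chow (bottom), ordered by complex along the horizontal axis; points are the fitted values, bars are 95% intervals, and coloured points passed the test. Most genes lie close to 0, and Ndufa3, Ndufa7 and Cox6a2 are above 0 in both panels.

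Complex I, the largest, had, with TMM scaling, 28 of 35 genes above 0 on control chow with a median log2 fold change of 0.08, and 20 of 35 on atglistatin chow with a median of 0.02. On control chow the vehicle and corticosterone groups overlapped for every tested member, where 4.71% of all genes had no overlap.

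Ndufa3, an accessory subunit (chr7:3617373-3620327), had 262 to 395 CPM (median 362) in EtOH_CON and 377 to 610 CPM (median 420) in Cort_CON. On atglistatin chow its range was 326 to 389 CPM (median 364) with vehicle and 325 to 626 CPM (median 409) with corticosterone. The groups overlapped on both diets, but all 14 Cort_CON mice and 13 of 14 Cort_ATGLi mice were above the mean of their vehicle group. Ndufa3 rose by 0.39 ± 0.087 (log2, SE; adjusted p 0.000228) on control chow and by 0.28 ± 0.087 (adjusted p 0.00908) on atglistatin chow.

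Ndufa7, another accessory subunit (chr17:33824572-33838317), had 166 to 225 CPM (median 192) in EtOH_CON and 198 to 339 CPM (median 239) in Cort_CON. It had 173 to 225 CPM (median 198) in EtOH_ATGLi and 201 to 339 CPM (median 225) in Cort_ATGLi. All 14 corticosterone mice on each diet were above the vehicle mean, and the groups overlapped. The rise was 0.37 ± 0.086 (adjusted p 0.000467) on control chow and 0.31 ± 0.086 (adjusted p 0.00405) on atglistatin chow. With only the 5 nondiabetic Cort_CON mice it was 0.29 and missed the threshold (adjusted p 0.0559).

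Ndufs1, the large core subunit that carries iron-sulfur clusters (chr1:63143596-63176833), went the other way. It had 239 to 318 CPM (median 258) in EtOH_CON and 138 to 285 CPM (median 233) in Cort_CON, and 10 of 14 Cort_CON mice were below all EtOH_CON mice. Ndufs1 fell by 0.22 ± 0.087 (adjusted p 0.0422), and on atglistatin chow its log2 fold change was -0.20 ± 0.087 (adjusted p 0.0751). Its call on control chow was lost without EtOH_CON p01, its highest vehicle library (adjusted p 0.0801), and with nondiabetic mice only (adjusted p 0.659). That call held without both EtOH_CON p01 and Cort_ATGLi p41, although p41 is not in this comparison.

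Ndufs1 and Ndufa3 overlap other genes on the opposite strand, and the strand setting of the counting is not given, so reads of the partners cannot be told apart. Eef1b2, which overlaps Ndufs1 and encodes a translation elongation factor subunit, had a log2 fold change of 0.47 ± 0.084 on control chow, opposite in sign to Ndufs1. Tfpt, which overlaps Ndufa3, averaged 6.70 CPM and had -0.07 ± 0.12.

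Complexes II and III showed no member past the test with TMM scaling. Sdha, the flavoprotein that oxidises succinate, had 281 to 379 CPM (median 331) in EtOH_CON and 238 to 379 CPM (median 322) in Cort_CON. Its log2 fold change was -0.06 ± 0.073 on control chow (adjusted p 0.569) and -0.06 ± 0.073 on atglistatin chow (adjusted p 0.561). Sdhb, the iron-sulfur subunit, had -0.14 ± 0.11 and -0.11 ± 0.11. In complex III the 2 members with the smallest p were the core protein gene Uqcrc1 (-0.18 ± 0.091, adjusted p 0.121, on control chow and -0.15 ± 0.091, adjusted p 0.207, on atglistatin chow) and Uqcrq, a small subunit (0.17 ± 0.11 and 0.13 ± 0.11). Without EtOH_CON p01, in which Uqcrc1 was lowest among vehicle mice at 301 CPM, the Uqcrc1 value was -0.22 and passed (adjusted p 0.0430).

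In complex IV the muscle form of subunit VIa, Cox6a2 (chr7:128205435-128206387), was the member that rose. It had 1884 to 2942 CPM (median 2723) in EtOH_CON and 2551 to 4322 CPM (median 3248) in Cort_CON, and 11 of 14 Cort_CON mice were above all EtOH_CON mice. On atglistatin chow it had 2379 to 3375 CPM (median 2899) with vehicle and 2279 to 4832 CPM (median 3403) with corticosterone. Cox6a2 rose by 0.36 ± 0.093 (adjusted p 0.00153) and 0.31 ± 0.093 (adjusted p 0.00908). Its counterpart in most tissues, Cox6a1, had -0.17 ± 0.081 (adjusted p 0.0809) on control chow and -0.07 ± 0.081 (adjusted p 0.586) on atglistatin chow.

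The ratio of such a pair within a library does not depend on how libraries are scaled, and is given as a description with no test. The mean log2 ratio of Cox6a2 to Cox6a1 CPM was 5.89 ± 0.296 (SD, n = 10) in EtOH_CON and 6.42 ± 0.221 (n = 14) in Cort_CON. It was 6.14 ± 0.183 (n = 10) in EtOH_ATGLi and 6.5 ± 0.300 (n = 14) in Cort_ATGLi. The groups overlapped in both cases. Cox7a1, the heart and muscle form of subunit VIIa, moved the other way against Cox7a2, with a log2 ratio of 0.34 ± 0.0981 in EtOH_CON, 0.06 ± 0.173 in Cort_CON, 0.19 ± 0.0719 in EtOH_ATGLi and 0.05 ± 0.302 in Cort_ATGLi. Leaving out EtOH_CON p01 and Cort_ATGLi p41 brought that difference to -0.25 on control chow and to -0.07 on atglistatin chow, where it was -0.14 with all libraries. Cox7a1 itself had a log2 fold change of -0.31 ± 0.16 (adjusted p 0.123) on control chow. The third pair of forms, Cox8b and Cox8a, had differences in log2 ratio of -0.21 on control chow, -0.14 without EtOH_CON p01, and 0.04 on atglistatin chow. Cox4i1 had log2 fold changes of -0.06 ± 0.10 and -0.04 ± 0.10 with corticosterone, and Cox4i2, the form linked to low oxygen, averaged under 1 CPM in every group with intervals too wide to place it.

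Ndufa4l2, a relative of the complex IV subunit Ndufa4 that is known as a hypoxia-induced gene (chr10:127514967-127517154), fell on control chow. It was a low gene, at 3.19 to 6.41 CPM (median 4.40) in EtOH_CON and 1.75 to 4.81 CPM (median 2.94) in Cort_CON, with 9 of 14 Cort_CON mice below all EtOH_CON mice. The log2 fold change was -0.49 ± 0.14 (adjusted p 0.00416), and it passed with the 5 nondiabetic Cort_CON mice alone (-0.59, adjusted p 0.0198). On atglistatin chow it had 2.20 to 4.54 CPM (median 3.21) with vehicle and 2.16 to 4.93 CPM (median 3.42) with corticosterone, and the log2 fold change was 0.05 ± 0.14 (adjusted p 0.839). The difference between the responses on the 2 diets was 0.53 ± 0.20, and it did not pass over all genes (p 0.00973, adjusted p 0.698). Its level in EtOH_ATGLi was already 0.38 below that in EtOH_CON on the log2 scale (-0.38 ± 0.15, adjusted p 0.598). Shmt2, which overlaps it on the other strand, averaged 11.7 CPM and had -0.13 ± 0.081. Ndufa4 itself had -0.01 ± 0.11 on control chow and 0.03 ± 0.11 on atglistatin chow.

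**Figure D2:**
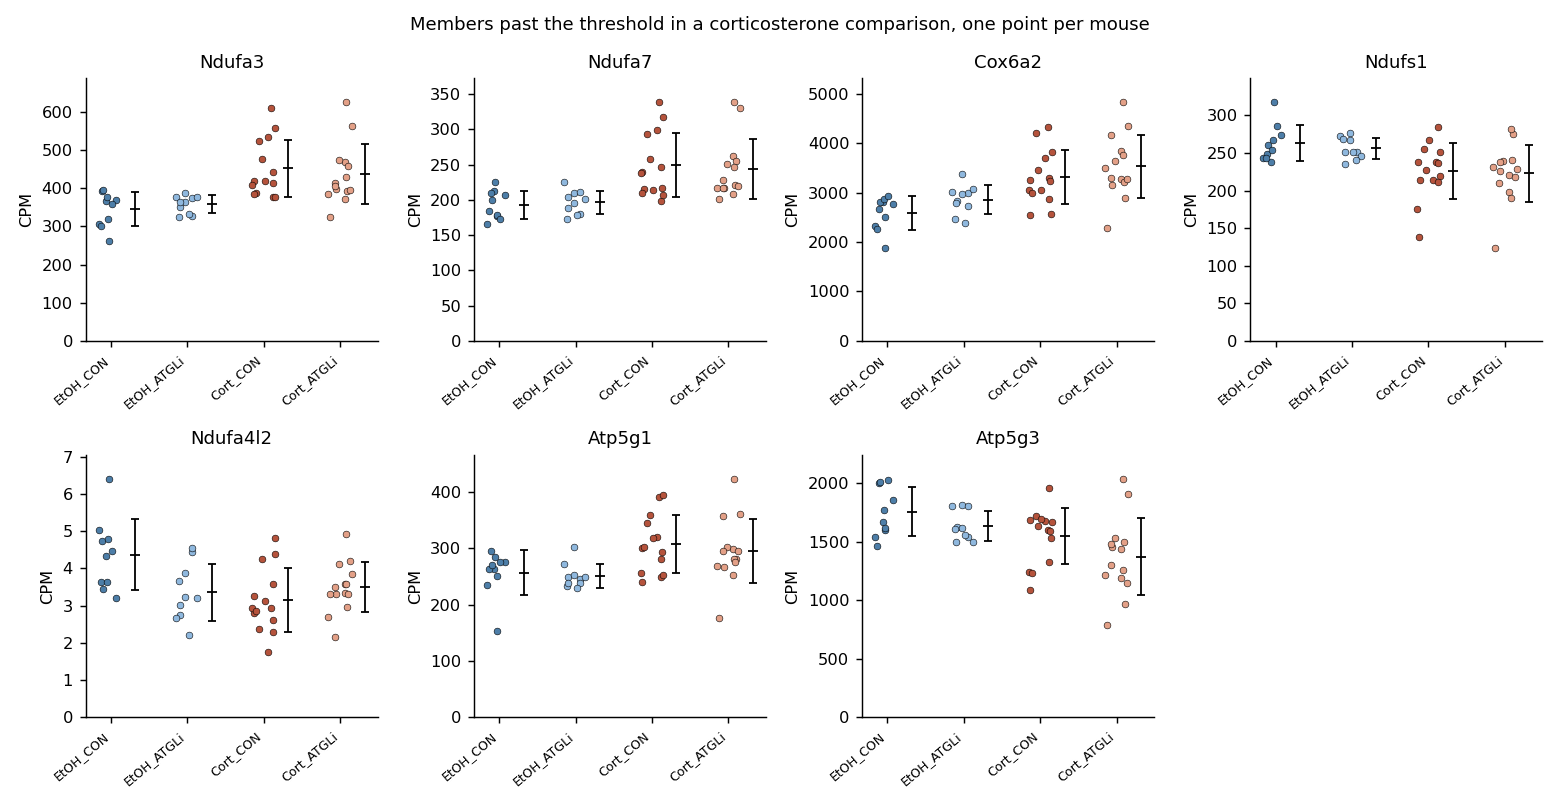
CPM in each mouse (points) of 7 members that passed the test in a corticosterone comparison, with the group mean and SD beside the points; vertical axes start at 0. Ndufa3, Ndufa7 and Cox6a2 lie higher in both corticosterone groups, and Ndufa4l2 is highest in EtOH_CON.

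ATP synthase takes its membrane ring from 3 genes, Atp5g1, Atp5g2 and Atp5g3, whose products differ in the import signal that is cut off. Atp5g1 (chr11:96068852-96075670) had 153 to 295 CPM (median 267) in EtOH_CON and 241 to 395 CPM (median 301) in Cort_CON, and 8 of 14 Cort_CON mice were above all EtOH_CON mice. It rose by 0.26 ± 0.096 (adjusted p 0.0255) on control chow. The lowest vehicle value, 153, came from EtOH_CON p01, and without it the change was 0.19 (adjusted p 0.0879). The change was also short of the threshold with library totals (0.14, adjusted p 0.110), with upper quartile scaling (0.21, adjusted p 0.0680) and with only nondiabetic mice (0.20, adjusted p 0.263). The Atp5g1 call held without both EtOH_CON p01 and Cort_ATGLi p41, although p41 is not in this comparison. On atglistatin chow Atp5g1 had 230 to 303 CPM (median 247) with vehicle and 176 to 424 CPM (median 288) with corticosterone, a change of 0.23 ± 0.096 (adjusted p 0.0569). It passed without Cort_ATGLi p41, its lowest library in that group (0.28, adjusted p 0.0123), and also without EtOH_CON p01 (0.23, adjusted p 0.0323).

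Atp5g3 (chr2:73908447-73911326) had 1494 to 1816 CPM (median 1612) in EtOH_ATGLi and 790 to 2039 CPM (median 1372) in Cort_ATGLi, and 11 of 14 Cort_ATGLi mice were below all EtOH_ATGLi mice. It fell by 0.25 ± 0.099 on the log2 scale (adjusted p 0.0450). That call was lost without Cort_ATGLi p41 (-0.21, adjusted p 0.0699), without EtOH_ATGLi p13 (-0.26, adjusted p 0.0506), and with only the 2 groups in the fit (-0.26, adjusted p 0.0662). On control chow Atp5g3 had 1460 to 2027 CPM (median 1720) with vehicle and 1088 to 1959 CPM (median 1618) with corticosterone, a change of -0.18 ± 0.099 (adjusted p 0.146). Atp5g2 was near 4 CPM and had 0.34 ± 0.15 (adjusted p 0.0650) and 0.32 ± 0.15 (adjusted p 0.0998), and the first passed without EtOH_CON p01 (0.46, adjusted p 0.00897) and with limma voom (0.36, adjusted p 0.0499). Without both EtOH_CON p01 and Cort_ATGLi p41 the second passed too (0.35, adjusted p 0.0422).

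Within libraries the log2 ratio of Atp5g1 to Atp5g3 was -2.78 ± 0.243 (SD, n = 10) in EtOH_CON and -2.33 ± 0.222 (n = 14) in Cort_CON. On atglistatin chow it was -2.70 ± 0.0879 (n = 10) with vehicle, from -2.88 to -2.59, and -2.20 ± 0.185 (n = 14) with corticosterone, from -2.44 to -1.78. Thus all 14 Cort_ATGLi mice had a higher ratio than all 10 EtOH_ATGLi mice, while the control chow groups overlapped. How often other gene pairs lack overlap was not counted, and this pair was chosen with earlier results of these data known. The difference of the means was 0.45 on control chow and 0.50 on atglistatin chow, and it was 0.39 and 0.50 without EtOH_CON p01 and Cort_ATGLi p41.

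**Figure D3:**
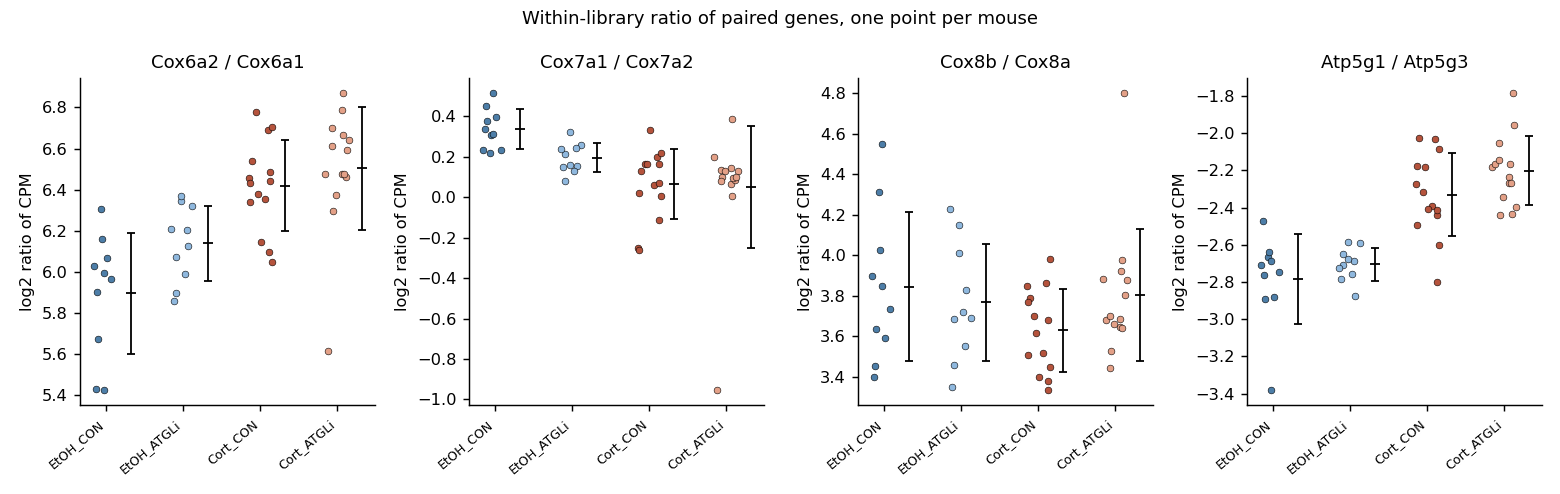
Log2 ratio of CPM between paired genes within each library (points), with the group mean and SD beside them, for 3 pairs of complex IV subunit forms and for Atp5g1 against Atp5g3. Axes do not start at 0. The Atp5g1 to Atp5g3 ratio is higher in every Cort_ATGLi mouse than in every EtOH_ATGLi mouse, with no background from other gene pairs. Cort_ATGLi p41 is the lowest point for Cox7a1 against Cox7a2.

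Mice given corticosterone differed more from one another in these genes than vehicle mice did. The standard deviation of log2 CPM between mice had a median over the 83 subunit genes of 0.164 in EtOH_CON and 0.276 in Cort_CON, and was larger with corticosterone for 75 of 83 genes. On atglistatin chow it was 0.138 with vehicle and 0.307 with corticosterone, larger for 81 of 83. The median ratio of the standard deviations was 1.67 on control chow and 2.26 on atglistatin chow. Over all genes tested it was 1.13 and 1.22, and over those averaging 50 CPM or more it was 1.21 and 1.49. The standard deviation was larger with corticosterone for 61.9% of all genes on control chow and 68.6% on atglistatin chow. Of those averaging 50 CPM or more it was larger for 64.9% and 81.8%, and of the subunit genes for 90.4% and 97.6%. This is a description with no test, and the genes are not independent since mice were high or low for many of them together.

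**Figure D4:**
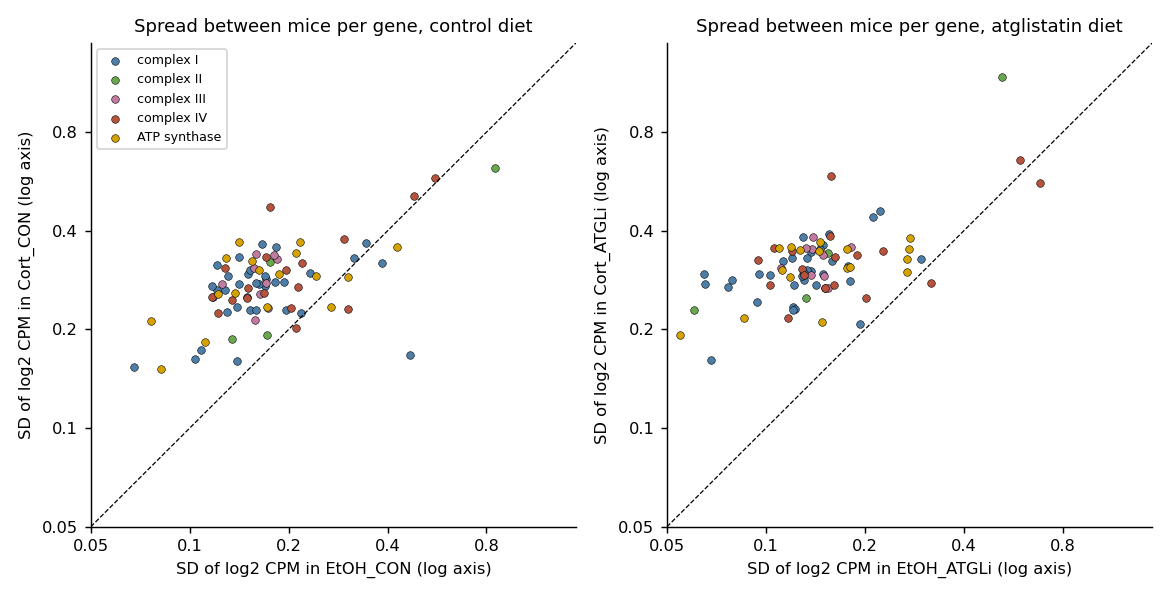
Standard deviation of log2 CPM between mice for each of the 83 subunit genes, vehicle on the horizontal and corticosterone on the vertical log axis, for control chow (left) and atglistatin chow (right); the dashed line marks equal spread. On control chow 75 points and on atglistatin chow 81 points lie above the line. Of genes averaging 50 CPM or more, 64.9% and 81.8% had the larger standard deviation with corticosterone, and of all genes 61.9% and 68.6%.

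The summed CPM of the 83 subunit genes, with TMM scaling, was 33875 to 42625 (mean 38897 ± 3053 SD, n = 10) in EtOH_CON and 27418 to 49774 (40112 ± 6505, n = 14) in Cort_CON. It was 33990 to 42549 (38023 ± 3113, n = 10) in EtOH_ATGLi and 24300 to 57187 (38712 ± 7905, n = 14) in Cort_ATGLi. With that scaling the corticosterone groups reached both above and below the vehicle range on each diet. With library totals the Cort_CON sums, 27788 to 43882 (38012 ± 4879), did not reach above the EtOH_CON sums, 35046 to 44040 (40069 ± 2827), and the Cort_CON mean was the lower one, where with TMM it was the higher. In Cort_ATGLi, mouse p24 was highest for 71 of the 83 genes and mouse p41 was lowest for 74. In Cort_CON, mouse p45 was lowest for 64, and mice p27 and p28 were highest for 36 and 28. How often each of these mice was highest or lowest over all genes was not counted.

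These libraries stood out in other measures too. Mouse p41 had the largest TMM factor (1.22), the lowest summed muscle fibre markers (75654.5 CPM against a group median of 114500) and the lowest summed mitochondrially encoded counts (143787 CPM). The insulin label of p41 was 2.192, where vehicle mice had 0.4641 to 3.464 and the other corticosterone mice had 5.67 or more. Its summed white adipocyte markers, at 847.7 CPM, were the highest of its group. Mouse p24 had a TMM factor of 0.862, the highest mitochondrially encoded sum (304975 CPM) and the highest slow fibre sum (3192.6 CPM). Mouse p27 had the smallest TMM factor of all libraries (0.853) and the highest summed muscle fibre markers (140828.6 CPM). The factor of p28 was 0.864. That of p45 was 1.01, and its mitochondrially encoded sum (187134 CPM) was the lowest of Cort_CON. The part of these features in the spread was not tested. Without p41 the ratio on atglistatin chow was 1.85, with 78 of 83 genes larger. Genes averaging 50 CPM or more then gave 1.32, with 73.6% larger. Without EtOH_CON p01 the ratio was 1.90 on control chow, with 79 of 83 genes larger. Genes at that level then gave 1.49, with 86.5% larger. With library totals in place of TMM the ratios were 1.52 and 1.71, against 1.18 and 1.45 at that level. Leaving out the highest and lowest library of every group gave 1.42 and 1.63. All genes then gave 1.09 and 1.12, and those averaging 50 CPM or more gave 1.09 and 1.28.

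**Figure D5:**
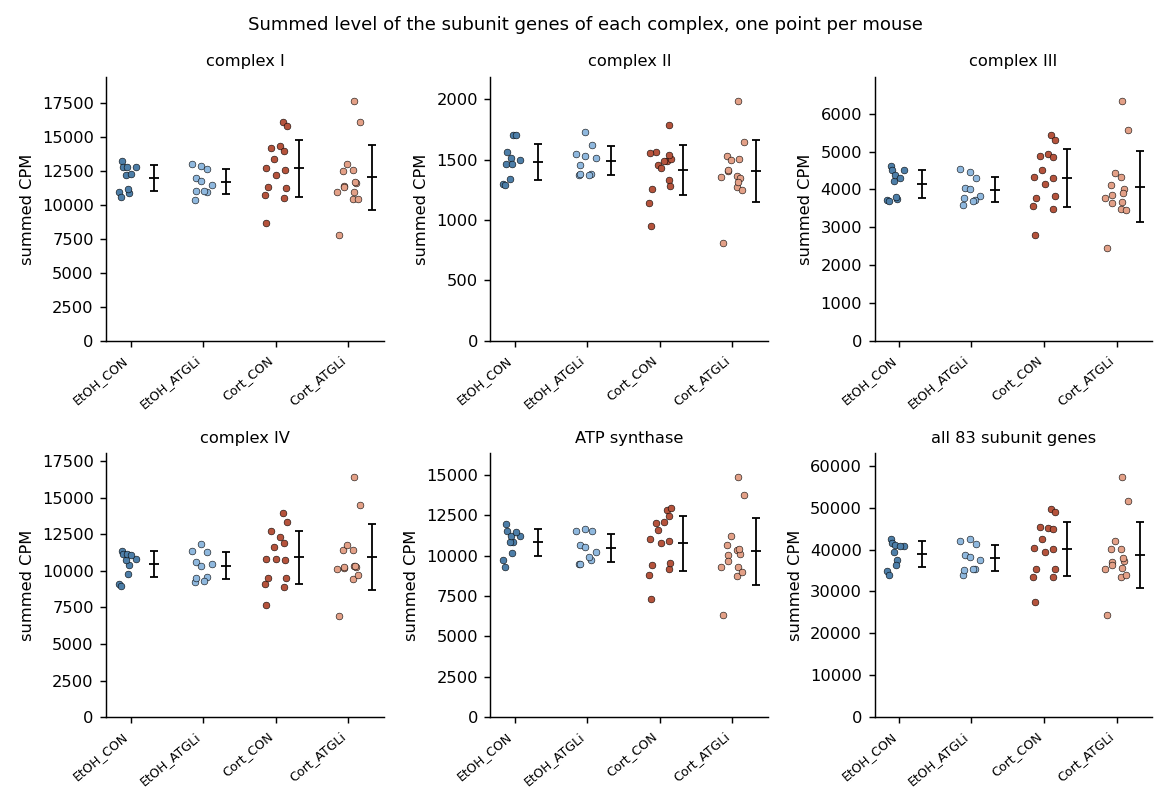
Summed CPM of the subunit genes of each complex and of all 83 genes in each mouse (points), with group mean and SD beside the points; vertical axes start at 0. CPM here are TMM scaled; the corticosterone groups extend further up and down than the vehicle groups in the panel of all genes.

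By complex, again with TMM scaling, complex I sums were 10610 to 13253 CPM in EtOH_CON and 8696 to 16088 in Cort_CON, and 10337 to 13039 in EtOH_ATGLi and 7805 to 17643 in Cort_ATGLi. Complex II sums were 1288 to 1706 in EtOH_CON and 951 to 1791 in Cort_CON. In complex III every one of the 9 genes had the larger standard deviation with corticosterone on both diets, and in complex I all 35 did on atglistatin chow. Of genes averaging 50 CPM or more, 64.9% did on control chow and 81.8% on atglistatin chow. The median ratio by complex ran from 1.25 (complex II) to 1.78 (complex III) on control chow and from 1.96 (complex IV) to 2.38 (ATP synthase) on atglistatin chow.

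Atglistatin alone moved no member past the test. In vehicle mice 0 of 89 passed, where 0.0238% of all genes did; 2 members had an unadjusted p under 0.05, and DESeq2 and limma voom also called 0. These 2 were Ndufa4l2, given above, and Ndufs6b, a low copy of Ndufs6, at -0.91 ± 0.35 (p 0.012, adjusted p 0.572). No member was without overlap between diets, where 0.0318% of all genes were in vehicle mice and 0.00794% in corticosterone mice. In corticosterone mice 0 of 89 passed, where 1.60% of all genes did, 3 had an unadjusted p under 0.05, and DESeq2 and limma voom again called 0. The smallest p there belonged to Ndufc2, a complex I accessory subunit, with -0.23 ± 0.081 (p 0.00554, adjusted p 0.144).

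Most values with atglistatin were slightly negative. With vehicle 72 of 89 log2 fold changes were below 0, with a median of -0.05, and with corticosterone 73 of 89 were, with a median of -0.06. About as many genes were above as below 0 over the whole table, where 50.9% and 49.8% were negative. All 9 complex III genes were below 0 in both comparisons, and 27 and 34 of the 35 complex I genes. These sign counts are a description with no test, since mice were high or low for many of these genes together. The median SE over the 83 subunit genes was 0.108 with vehicle and 0.0909 with corticosterone, larger than the size of either median. The count in corticosterone mice depended on scaling and on 1 library: 47 of 89 were negative with library totals, which moved the median of all genes to 0.08, and 56 without Cort_ATGLi p41. The intervals lay inside 1.5-fold for 79 of 83 subunit genes with vehicle and for 80 with corticosterone. The difference between the corticosterone responses on the 2 diets passed for 0 of 89 members (0.0397% of all genes), with 1 at an unadjusted p under 0.05, Ndufa4l2, and 0 by DESeq2 and limma voom.

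Diabetic and nondiabetic mice within Cort_CON (9 against 5) did not differ past the test for any member, nor for any gene (0%). No member had an unadjusted p under 0.05, and DESeq2 and limma voom called 0. The smallest p values belonged to Ndufs1 (-0.21 ± 0.11, p 0.0652, adjusted p 0.967) and Sdha (-0.17 ± 0.096, p 0.0774, adjusted p 0.968). Summed subunit CPM was 27418 to 49774 in the diabetic mice and 35312 to 45357 in the nondiabetic mice with TMM, and 27788 to 42450 and 32383 to 43882 with library totals. When the 5 nondiabetic mice alone stood for Cort_CON, 3 members rose, Ndufa3 and Cox6a2 among them, and Ndufa4l2 fell, 4 of 89 members where 22.7% of all genes passed.

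Of 54 assembly factors tested, 6 rose and 5 fell on control chow (20.4%, against 38.4% of all genes) and 5 rose and 4 fell on atglistatin chow (16.7%, against 30%), with medians of 0.03 and -0.01. Of the 83 subunit genes 8.43% and 6.02% passed. Ndufaf4, a complex I assembly factor, rose by 0.41 ± 0.075 (adjusted p 9.89e-06) and 0.29 ± 0.075 (adjusted p 0.00191), while Ndufaf2, which acts late in complex I assembly, fell by 0.30 ± 0.12 and 0.37 ± 0.12. Uqcc2, needed for cytochrome b synthesis in complex III, rose by 0.40 ± 0.093 and 0.26 ± 0.093. Coa5, a complex IV assembly factor, fell by 0.41 ± 0.085 and 0.36 ± 0.085. Cox18, which inserts a complex IV subunit into the membrane, rose by 0.25 ± 0.10 and 0.43 ± 0.10. Other factors passed on 1 diet only. Among those that passed on control chow, Bcs1l (-0.33 ± 0.079), Lrpprc (-0.35 ± 0.13) and Sdhaf3 (-0.28 ± 0.10) fell. Atpaf2 (0.36 ± 0.092) and Tmem70 (0.22 ± 0.065) rose there. Uqcc1 (-0.22 ± 0.088) was among those that passed on atglistatin chow only. The difference between the diets did not pass for any assembly factor.

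Of 15 genes listed for electron carriers and coenzyme Q synthesis, 2 rose and 4 fell on control chow, and 0 rose and 6 fell on atglistatin chow. That is 40% on each diet, against 38.4% and 30% of all genes. The list also holds Ndufab1, a complex I subunit gene that the symbol rule for members does not match. Ndufab1 did not pass on control chow (-0.10 ± 0.092) or on atglistatin chow (-0.10 ± 0.092). Coq10b, whose protein binds coenzyme Q and is needed for its use in the chain, fell by 1.32 ± 0.18 (adjusted p 5.27e-08) and 1.21 ± 0.18 (adjusted p 3.43e-07). Its relative Coq10a fell by 0.67 ± 0.14 (adjusted p 0.000217) and 0.62 ± 0.14 (adjusted p 0.000800).

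Among 19 regulators of mitochondrial biogenesis 4 rose and 2 fell on control chow, and 2 rose and 2 fell on atglistatin chow, shares of 31.6% and 21.1% that lie below those of all genes. Ppargc1b, a coactivator of oxidative genes, fell by 0.81 ± 0.11 (adjusted p 7.95e-09) and 0.74 ± 0.11 (adjusted p 1.62e-07). Ppara, a nuclear receptor for fatty acids, rose by 0.87 ± 0.26 (adjusted p 0.00565) on control chow and had 0.33 ± 0.25 (adjusted p 0.350) on atglistatin chow. Ppard, its relative, had 0.22 ± 0.11 (adjusted p 0.121) on control chow and rose by 0.32 ± 0.12 (adjusted p 0.0271) on atglistatin chow. The difference between the diets passed for 0 of the 19. Of the mitochondrially encoded genes, 8 of 13 were tested, and 4 rose and 0 fell on control chow and 2 rose and 0 fell on atglistatin chow, shares of 50% and 25% against 38.4% and 30% of all genes. The largest was mt-Nd6, a complex I subunit on the other strand of mitochondrial DNA, at 1.23 ± 0.20 and 0.99 ± 0.20. Since the strand setting of the counting is not given, reads from the opposite strand cannot be told apart for mt-Nd6. The next by p, mt-Nd5, rose by 0.30 ± 0.078 and 0.24 ± 0.078.

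The 5 tested copies averaged 0.528 to 1.52 CPM, and none passed in any comparison. Reads from such copies of Cox6c, Uqcrh, Atp5l, Ndufs6, Ndufb4 and Atp5k cannot be told apart from those of their parent genes without the counting rules, so these parents are uncertain to that extent. Atp5s had log2 fold changes of -0.17 on control chow and -0.12 on atglistatin chow and did not pass.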

How the data were processed

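Total RNA of 48 gastrocnemius samples was made into libraries with Lexogen QuantSeq, a 3′ end method, and read forward for 50 bp, per the labels. The authors deposited a table of raw counts per gene; the submitters' processing notes name GRCm38, DESeq2 1.24.0 and R 3.6.1. Aligner, counting program, strand setting and annotation: not given in the sources used here. Normalized signal values that the authors also deposited equal each count over 1 factor per library; no test used them. In 47 libraries every deposited count is even.

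Gene symbols came from GENCODE release M21, which held 14094 of the 14125 gene IDs, or from the deposited symbols. Genes were filtered with filterByExpr (minimum count 10, minimum total 15, 12592 kept). All 4 groups were fitted with edgeR 4.0.16 (R 4.3.3), TMM scaling and the robust quasi-likelihood test, with no covariate and Benjamini-Hochberg adjustment over all genes tested. Disease state used 5 groups in the same way. DESeq2 1.42.0, limma 3.58.1 (voom), other scalings, no filter, halved counts, fits of 2 groups, replicate blocks and omitted libraries were alternatives; leaving out EtOH_ATGLi p13, both p01 and p41, or the end libraries of each group was chosen after seeing the data. The script was tested on simulated counts. The members, the pairs of subunit forms and all lists were chosen with earlier results of these data known. Members named were drawn from the 2 with the smallest p per complex and comparison, and from the paired forms. Any past the threshold with a fold of 1.5 or more was also to be named. From each pathway list the 2 genes with the smallest p past the threshold are named. Cell type markers are given as counts or sums only. The counts include 1 member whose own values are not reported here. Reads carry no stated molecular identifiers.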

Additional observations from a re-analysis of the deposited data

Results flagged for a closer look

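In 3 of 76 sets of values checked, 1 library stood apart from the rest of its group by more than Dixon's 95% critical value, and chance alone marks about 1 in 20. All 3 were library EtOH_CON p01. Atp5g1 was at 153.4 CPM there, with the nearest other vehicle mouse at 235.1 CPM. Cox4i1 was at 880.4 CPM, with the nearest at 717.2, and Atp5o, a stalk subunit of ATP synthase, was at 1126 CPM, with the nearest at 923.7. The same library was thus low for one subunit gene of ATP synthase and high for another.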

How the results depend on the processing

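Ndufa3 and Cox6a2 kept their calls on both diets, and Ndufa4l2 on control chow, under every alternative run except the fits of same-numbered libraries; no called value changed sign. With library totals 20 members passed on control chow (65 of 89 negative) and 10 on atglistatin chow, 47 were negative for atglistatin in corticosterone mice, and 22 for the interaction (55 with TMM). The share of all genes that passed under library totals was not counted. With only the 5 nondiabetic Cort_CON mice 4 passed. Leaving out Cort_ATGLi p41, EtOH_CON p01 or EtOH_ATGLi p13 gave 30 to 58 negative for the interaction, the lowest without p41. Without both EtOH_CON p01 and Cort_ATGLi p41, 25 were negative on atglistatin chow (41 with all) and 28 for the interaction. The cause was not tested. Title numbers shared between groups did not pair samples (correlations of same-numbered libraries -0.0596 to 0.155 for 4 numbers, and 0.0408 and -0.0216 for 2). With the 2 shared numbers as a replicate block, 4 members passed on atglistatin chow, none of them a member called with all libraries, and 3 passed in those libraries with no replicate block; with the 4 shared numbers in vehicle mice, 0 passed either way, and 77 and 78 were negative. With 10 or 14 libraries a group, only those 3 libraries were left out singly. Cox4i2, Cox6b2 and the copies, near or below 1 CPM, rested on few counts, which limits what could be seen.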
